A study of Mus musculus with 6 samples.

Results

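The genes that build melanin and the melanosome were followed in the mouse melanoma line B16-F1, which derives from strain C57BL/6J. The 10 genes were Tyr, Tyrp1, Dct, Pmel, Mlana, Oca2, Slc45a2, Gpr143, Trpm1 and Gpnmb, and their members on the array were all probe sets annotated to one of these symbols alone. They had 19 probe sets among 45037, and all 19 passed the filter on dim signals. Lentivirus had been used to give the cells a stable short hairpin RNA (shRNA), which lowers the transcript it matches. One line received a hairpin to macroH2A1, another to macroH2A2, and the control line carried one to GFP. Each of the 3 lines was grown as 2 biological replicates and measured on 1 array each, 6 arrays in all. The sources used here do not give the number of hairpins or clones behind a line. MacroH2A proteins are histone H2A variants with a large additional domain.

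Melanin is made inside the melanosome, a lysosome-related organelle of pigment cells. Tyrosinase, encoded by Tyr, oxidises tyrosine in the rate-limiting step, and its relatives Tyrp1 and Dct act on later intermediates of the brown-black pigment. Pmel forms the fibrils on which the pigment is laid down, Oca2 and Slc45a2 set the ionic and pH conditions that tyrosinase needs, and the transcription factor Mitf activates many of these genes through short E-box sequences. B16 cells are a pigmented melanoma, and these genes are among the strongest marks of their melanocytic origin.

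The promoters of the 3 enzyme genes are shown first because the enzymes carry the steps of melanin synthesis, and the 2 promoters of Trpm1 because its probe sets disagreed. Windows of 250 bases before the start were taken from RefSeq (GRCm38.p6), which held 7 windows for 6 of the 10 genes. Capitals mark every match, on either strand, to CATGTG, to CACGTG or to the M-box, a longer element known from promoters of pigment genes. The M-box is the run of 11 capitals in the Tyr and Tyrp1 windows and contains CATGTG.
Tyr, minus strand, chr7:87493513-87493762: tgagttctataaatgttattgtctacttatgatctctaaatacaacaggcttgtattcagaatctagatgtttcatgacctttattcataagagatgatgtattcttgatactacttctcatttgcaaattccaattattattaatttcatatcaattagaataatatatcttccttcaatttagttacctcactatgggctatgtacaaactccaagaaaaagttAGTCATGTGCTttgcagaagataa
Tyrp1, plus strand, chr4:80833963-80834212: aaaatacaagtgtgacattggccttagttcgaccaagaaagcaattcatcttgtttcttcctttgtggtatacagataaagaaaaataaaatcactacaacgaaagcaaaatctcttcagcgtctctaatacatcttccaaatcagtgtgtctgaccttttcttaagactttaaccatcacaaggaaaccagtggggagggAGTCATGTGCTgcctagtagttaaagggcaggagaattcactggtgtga
Dct, minus strand, chr14:118052247-118052496: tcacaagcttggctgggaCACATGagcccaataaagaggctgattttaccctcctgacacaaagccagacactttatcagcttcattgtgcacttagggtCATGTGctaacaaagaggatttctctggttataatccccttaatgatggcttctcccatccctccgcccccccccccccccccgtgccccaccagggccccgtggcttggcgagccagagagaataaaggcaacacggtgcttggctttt
Trpm1, first window, plus strand, chr7:64153585-64153834: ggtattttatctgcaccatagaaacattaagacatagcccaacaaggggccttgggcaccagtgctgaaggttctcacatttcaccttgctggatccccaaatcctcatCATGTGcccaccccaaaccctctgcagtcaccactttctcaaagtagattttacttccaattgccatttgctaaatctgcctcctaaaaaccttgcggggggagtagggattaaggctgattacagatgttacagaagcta
Trpm1, second window, plus strand, chr7:64185209-64185458: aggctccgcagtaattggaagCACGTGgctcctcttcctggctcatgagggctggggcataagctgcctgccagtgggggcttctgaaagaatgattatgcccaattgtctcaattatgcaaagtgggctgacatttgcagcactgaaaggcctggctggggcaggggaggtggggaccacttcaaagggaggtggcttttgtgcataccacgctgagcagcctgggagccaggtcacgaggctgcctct

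The M-box begins 24 bases before the Tyr start and 49 bases before the Tyrp1 start. Of 32851 windows of this length in the table, 7 (0.0213%) held it, while 12.3% held CATGTG on either strand and 6.02% held CACGTG. Dct had CATGTG at 150 bases before its start and on the opposite strand at 232. The window of Oca2 had it on the opposite strand at 186 bases, and the window of Gpnmb held none of the 3 motifs. These matches are a description of the letters and were not linked to binding in these cells.

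Any 2 arrays correlated across probe sets with r between 0.972 and 0.989 on the log2 scale, and the median signal lay between 15.1 and 24.6. The hairpin target Macroh2a1 read 1212.7 and 1262.4 on the control arrays, 444.2 and 319.1 on those with macroH2A1 shRNA and 1271.2 and 1170.5 on those with macroH2A2 shRNA. Macroh2a2 read 6.1 and 7.5 on the control arrays, 3.5 and 2 with macroH2A1 shRNA and 11.9 and 8.3 with macroH2A2 shRNA. Its mean signal was under the filter of 10.4 and it was not tested. The arrays thus show no lower target in the macroH2A2 shRNA line and do not check its label. Knockdown line here means a line with a macroH2A hairpin. Melanocytic markers differed in level. Mitf read between 2897.6 and 3921 and Sox10, which specifies the lineage, between 1288.3 and 1600.4, while Kit averaged 52.9 and Ednrb 11.7. Of 17 lineage genes 14 passed the filter, and Irf4, Lef1 and Tfec did not. The filter kept 27025 of all 45037 probe sets. Leukocyte markers passed it in 3 of 10 cases, fibroblast markers in 2 of 7, and keratinocyte, endothelial and retinal pigment epithelium markers in 1 of 5 each.

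None of the 19 pigment probe sets changed in either knockdown line at a limma adjusted p under 0.05. For macroH2A1 shRNA against control 0 of 19 passed (smallest limma adjusted p 0.880), against 0% of all tested probe sets, and 4 had an unadjusted p under 0.05, against 4.4%. For macroH2A2 shRNA 0 of 19 passed (smallest limma adjusted p 1), again against 0%, and 0 had an unadjusted p under 0.05, against 3.98%. With the replicate number as a block 0 passed in either comparison, against 0.192% and 0.144% of all tested probe sets. In that blocked limma fit 10 and 4 of the 19 had an unadjusted p under 0.05, against 8.84% and 8.98%. Taking 1 probe set per gene, 7 genes were higher and 3 lower in the macroH2A1 shRNA line, where 44.4% of all tested probe sets were higher, with a median log2 difference of 0.19 against -0.03 over all tested probe sets. In the macroH2A2 shRNA line 7 were again higher and 3 lower, against 44.3% higher over all, with a median of 0.07 against -0.03. After quantile normalization the former line had 5 higher and 5 lower and the latter 4 higher and 6 lower. Both comparisons use the same control arrays, so their values are not independent of each other.

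**Figure D1:**
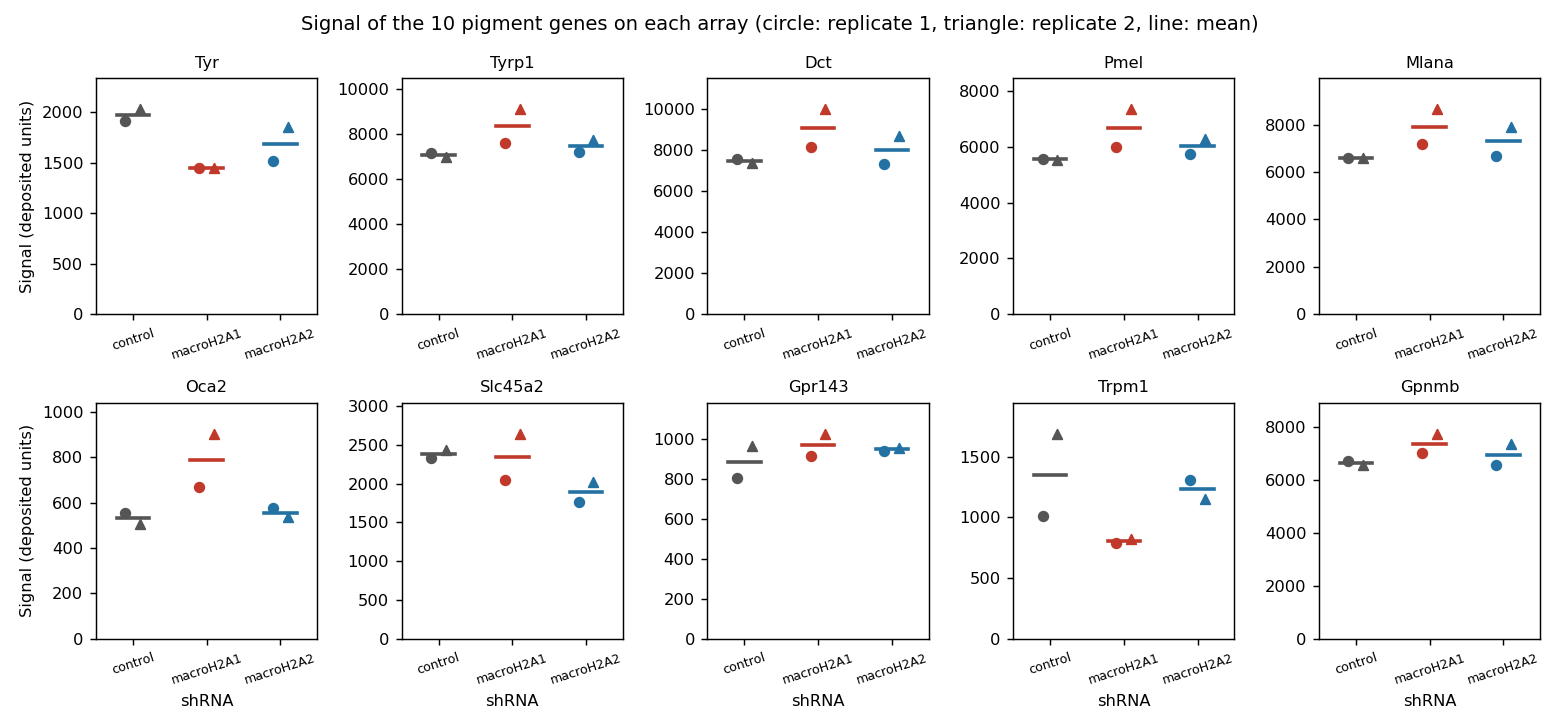
Signal of each pigment gene (vertical axis, deposited linear units starting at 0, brightest probe set) on the 6 arrays, grouped by shRNA on the horizontal axis. Circles are replicate 1, triangles replicate 2 and lines the mean of 2; Tyr and Trpm1 read lowest in the macroH2A1 shRNA line and Oca2 read highest there.

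Tyr, the enzyme of the rate-limiting step, read lower in both knockdown lines on all 3 of its probe sets. The brightest, 1417717_a_at, had signals of 1917.2 and 2031.7 on the control arrays, 1450.3 and 1443.2 on those with macroH2A1 shRNA and 1514.8 and 1851.1 on those with macroH2A2 shRNA. Both knockdown lines lay wholly below the control arrays. The macroH2A1 shRNA mean was 1447 ± 5.02 against 1974 ± 81.0 (SD, n = 2), a 1.36-fold lower level. The log2 difference was -0.44 (SE 0.13, interval -0.75 to -0.14), with -0.40 in replicate 1 and -0.49 in replicate 2. Its limma adjusted p was 0.880, or 0.215 with the block. In the macroH2A2 shRNA line the log2 difference was -0.23 (SE 0.13, interval -0.54 to 0.07), with -0.34 and -0.13 in the replicates. That interval includes 0, and the limma adjusted p was 0.607 with the block.

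A further Tyr probe set, 1448821_at, read 227.2 and 192.5 in the control line, 153.7 and 130.3 with macroH2A1 shRNA and 142.7 and 162.4 with macroH2A2 shRNA, again without overlap with the control. Its log2 differences were -0.52 (SE 0.18) and -0.42 (SE 0.18). The probe set 1456095_at varied more. Its control arrays read 770.3 and 493.0, its macroH2A1 shRNA arrays 560.1 and 235.5 and its macroH2A2 shRNA arrays 435.3 and 406.9. The macroH2A1 shRNA arrays overlapped the control there, and the log2 differences were -0.73 (SE 0.37) and -0.53 (SE 0.37). All 3 probe sets thus had a lower mean in each knockdown line and in each replicate, and 0 of 3 passed the threshold. Over all tested probe sets 31.6% and 29.4% were lower in both replicates of the respective line. The difference held after quantile normalization, at -0.49 and -0.28 for the brightest probe set.

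**Figure D2:**
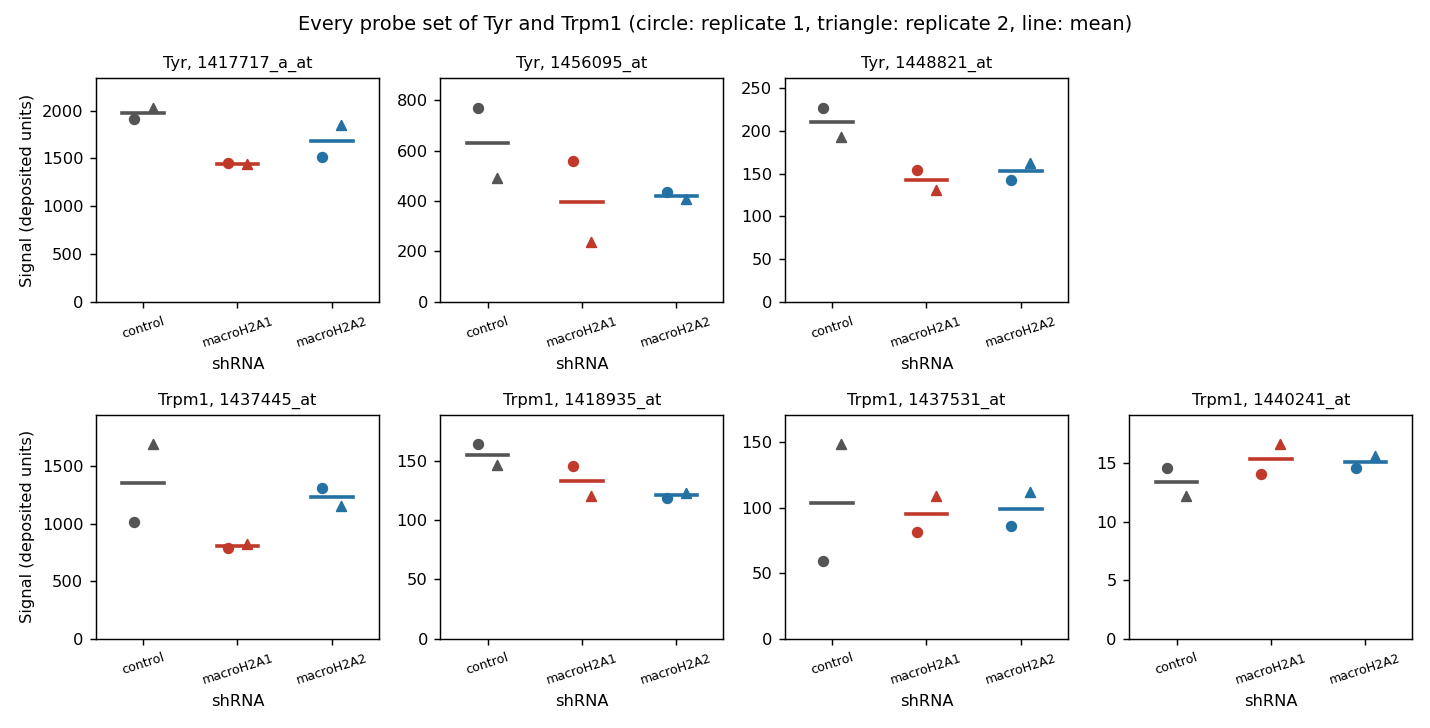
Signal (vertical axis, deposited linear units from 0) of the 3 Tyr probe sets in the upper row and the 4 Trpm1 probe sets in the lower row, by shRNA on the horizontal axis. Circles are replicate 1, triangles replicate 2 and lines the mean; the Tyr probe sets share a lower mean in both knockdown lines, while the Trpm1 probe sets differ among themselves.

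The relatives of tyrosinase read higher than control with the deposited scaling. After quantile normalization they were near 0, at -0.013 and -0.03 for Tyrp1 and 0.015 and -0.018 for Dct. That method gives every array the same distribution of signals. It takes out a shift that the brightest probe sets share, so a value near 0 cannot tell whether the level of these genes changed. How far the method sets these values was not tested. Tyrp1, a melanosomal enzyme and stabiliser of tyrosinase, read 7162.9 and 6990.4 in the control line, 7590.4 and 9110.5 with macroH2A1 shRNA and 7196.5 and 7747.5 with macroH2A2 shRNA on its brightest probe set. On that probe set every knockdown array was above the control arrays, with log2 differences of 0.23 (SE 0.11) and 0.08 (SE 0.11). The other 2 probe sets gave 0.21 and 0.18 with macroH2A1 shRNA, without overlap with the control. With macroH2A2 shRNA they gave 0.10 and 0.05, and both overlapped the control. Their signs there were opposite in the replicates, at -0.0036 and 0.20 for 1415862_at and -0.037 and 0.14 for 1439409_x_at. Dct, dopachrome tautomerase, read 7580.8 and 7353.8 in the control line, 8128.7 and 9998.0 with macroH2A1 shRNA and 7331.7 and 8695.5 with macroH2A2 shRNA. Its macroH2A1 shRNA arrays were above the control and its macroH2A2 shRNA arrays overlapped it, at log2 differences of 0.27 (SE 0.13, interval -0.03 to 0.57) and 0.10 (SE 0.13, interval -0.20 to 0.40).

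The structural proteins followed the pattern of Tyrp1 and Dct. Pmel, the fibril protein, read 5579.1 and 5541.5 in the control line, 6007.2 and 7365.0 with macroH2A1 shRNA and 5763.0 and 6300.8 with macroH2A2 shRNA. Mlana, a small melanosomal membrane protein needed for Pmel maturation, read 6611.9 and 6591.1, then 7166.0 and 8660.3, then 6699.4 and 7922.5 in the same order. For both genes all knockdown arrays lay above the control arrays, and the macroH2A1 shRNA replicate 2 array was the highest. The log2 differences were 0.26 (SE 0.12) and 0.12 (SE 0.12) for Pmel and 0.25 (SE 0.13) and 0.14 (SE 0.13) for Mlana.

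Gpnmb, a transmembrane glycoprotein of melanosomes that macrophages also make, read 6725.6 and 6588.3 in the control line, 7011.6 and 7752.4 with macroH2A1 shRNA and 6578.8 and 7348.2 with macroH2A2 shRNA. The macroH2A1 shRNA arrays did not overlap the control and the macroH2A2 shRNA arrays did, at log2 differences of 0.15 (SE 0.10) and 0.06 (SE 0.10). A second probe set, 1439345_at, gave 0.09 (SE 0.19) and -0.13 (SE 0.19) and overlapped the control in both lines. The 10 leukocyte and macrophage markers together summed to between 66.8 and 104.3 signal units per array (77.5 to 104.3 in the control line, 84.9 to 94.5 with macroH2A1 shRNA and 66.8 to 71.4 with macroH2A2 shRNA). Their brightest member, Csf1r, averaged 34.0, and 0 of 10 were at 0 on any array.

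**Figure D3:**
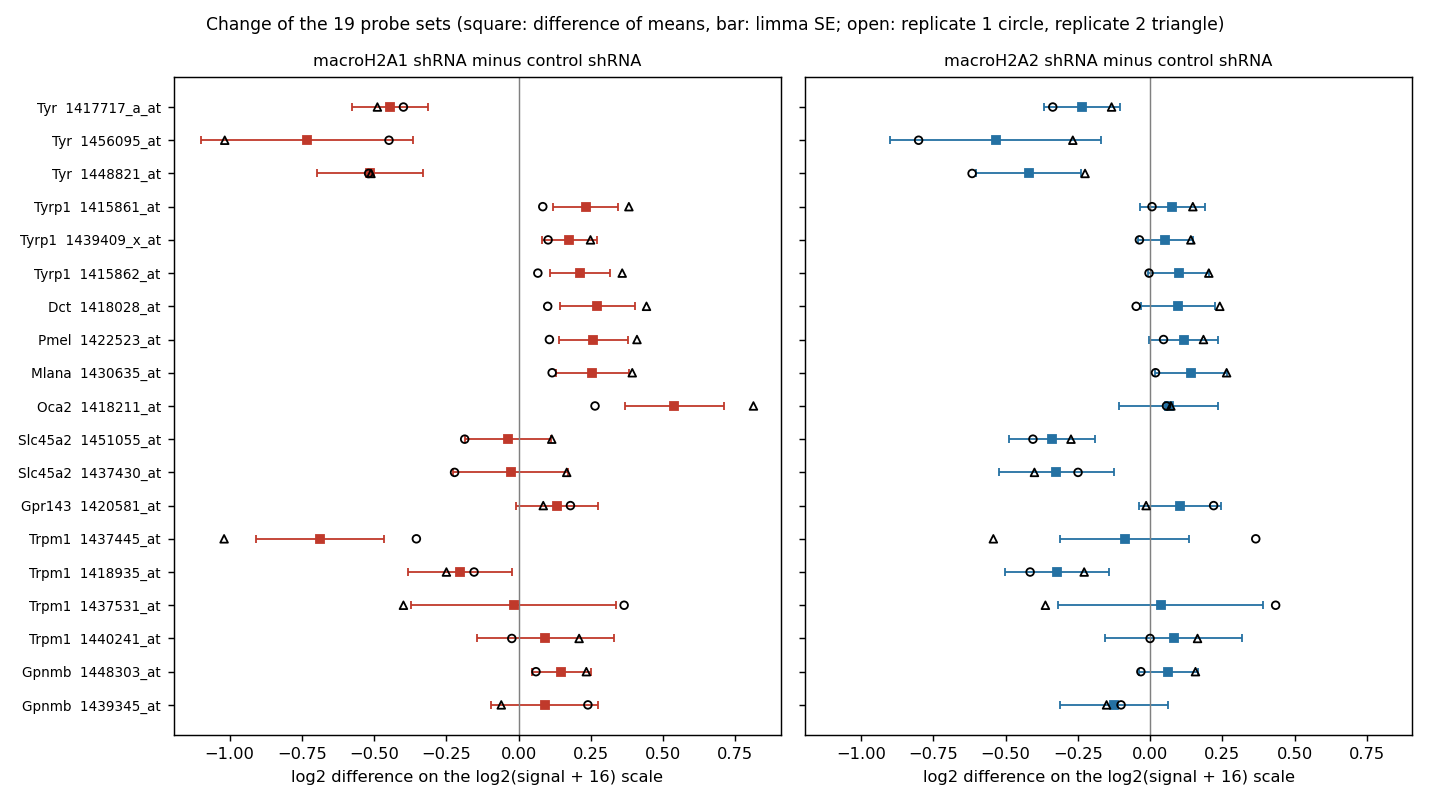
Log2 difference from control (horizontal axis, log2(signal + 16) scale) for each of the 19 probe sets (vertical axis), macroH2A1 shRNA on the left and macroH2A2 shRNA on the right. Squares are differences of group means with the limma SE as bars, open circles and triangles the differences within replicate 1 and replicate 2; all 3 Tyr probe sets lie left of 0 in both panels.

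The higher values of these genes were shared by the whole upper end of the signal range. A signal of 5000, a bound chosen after the values were seen, was exceeded by 253 tested probe sets, among them 7 of the members (all 3 of Tyrp1 and 1 each of Dct, Pmel, Mlana and Gpnmb). In the macroH2A1 shRNA line 98.4% of the 253 were higher than control, with a median log2 difference of 0.22, and the 7 pigment probe sets had a median of 0.23. In the macroH2A2 shRNA line the values were 92.5%, 0.10 and 0.10. For 86.2% of the 253 the macroH2A1 shRNA arrays did not overlap the control, against 27.9% of all tested probe sets. In the blocked limma fit 169 of the 253 had an unadjusted p under 0.05 for macroH2A1 shRNA, as did 5 of the 7 pigment probe sets. For macroH2A2 shRNA these counts were 8 of 253 and 0 of 7, and the arrays did not overlap the control for 65.6% of the 253 and for 3 of the 7. The 7 pigment probe sets were all higher than control in both lines as deposited. With arrays centred on their median 7 of 7 stayed higher in both lines, at medians of 0.29 and 0.17. Quantile normalization takes out a shift that the brightest probe sets share. After it 4 of 7 were higher with macroH2A1 shRNA and 3 of 7 with macroH2A2 shRNA, with medians of 0.00075 and -0.018. Pmel then read 0.05 and 0.018, Mlana 0.018 and 0.04, and Gpnmb -0.08 and -0.02.

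**Figure D4:**
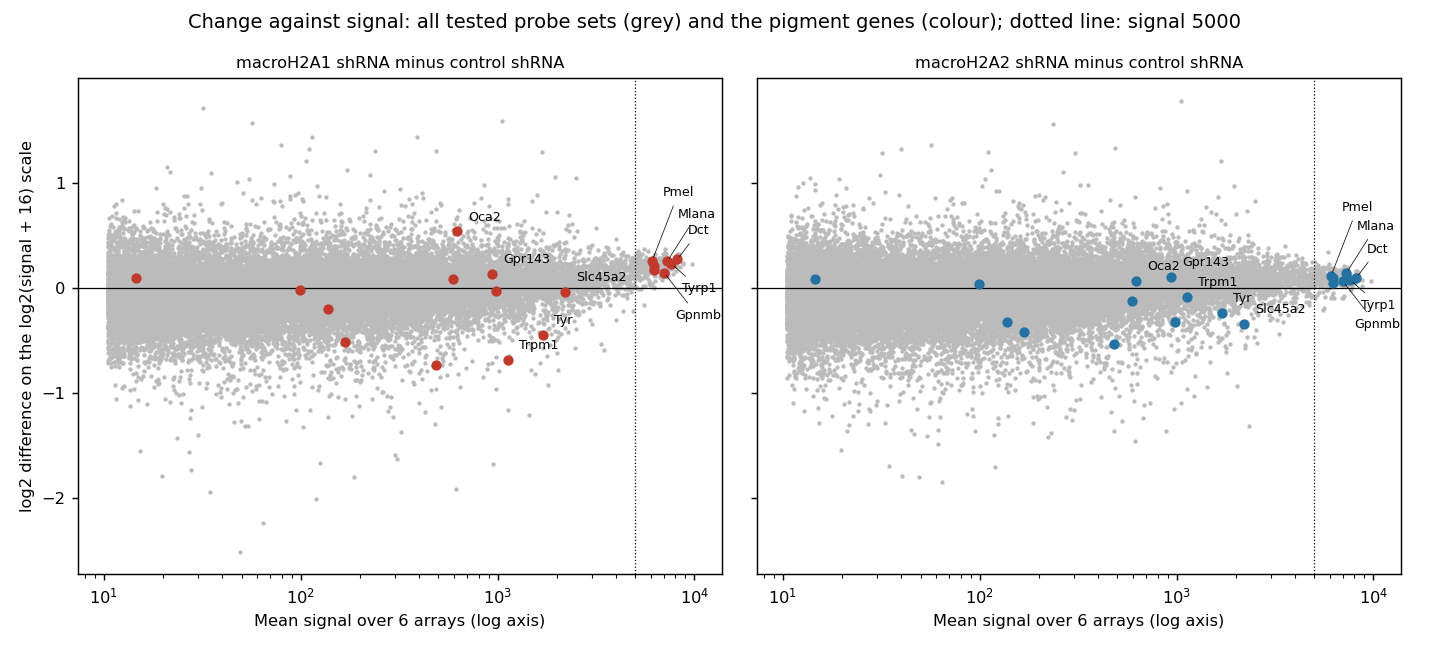
Log2 difference from control (vertical axis) against mean signal over the 6 arrays (horizontal log axis) for all tested probe sets in grey and the 19 pigment probe sets in colour, with the brightest of each gene named. Right of the dotted line at 5000, nearly the whole cloud lies above 0, at a median of 0.22 for macroH2A1 shRNA and 0.10 for macroH2A2 shRNA, and the 7 pigment probe sets lie within it.

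Among the genes of melanosomal transport, Oca2 read higher with macroH2A1 shRNA than on all other arrays. Oca2, an anion channel protein of the melanosome whose loss causes albinism, read 554.7 and 508.0 in the control line, 669.4 and 904.2 with macroH2A1 shRNA and 577.6 and 534.8 with macroH2A2 shRNA. The macroH2A1 shRNA arrays lay above the other 4 arrays, and the macroH2A2 shRNA arrays overlapped the control. The level was 1.45-fold higher with macroH2A1 shRNA (log2 difference 0.54, SE 0.17, interval 0.14 to 0.93), with 0.26 in replicate 1 and 0.81 in replicate 2. It was 0.33 without macroH2A1 shRNA replicate 2 and 0.75 without macroH2A1 shRNA replicate 1. Its limma adjusted p was 0.943, or 0.290 with the block, and quantile normalization left the difference at 0.54. With macroH2A2 shRNA the log2 difference was 0.06 (SE 0.17). Oca2 was measured by 1 probe set.

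Slc45a2, a melanosomal transporter needed for pigmentation, read lower with macroH2A2 shRNA on both of its probe sets. Its brightest probe set read 2335.3 and 2443.2 in the control line, 2049.8 and 2646.3 with macroH2A1 shRNA and 1759.4 and 2018.3 with macroH2A2 shRNA. The macroH2A1 shRNA arrays lay on either side of the control arrays, and the macroH2A2 shRNA arrays lay below them. The log2 differences were -0.04 (SE 0.15) and -0.34 (SE 0.15, interval -0.68 to 0.0026), the latter with a limma adjusted p of 1, or 0.360 with the block. The first of these was 0.15 without macroH2A1 shRNA replicate 1 and 0.02 with arrays centred on their median. The second probe set read 972.8 and 1126.0, then 831.9 and 1265.5, then 815.9 and 849.4, and gave -0.03 (SE 0.20) and -0.32 (SE 0.20). On both probe sets the macroH2A1 shRNA difference had opposite signs in the 2 replicates.

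Gpr143, the ocular albinism receptor on the melanosome membrane, read 806.8 and 968.3 in the control line, 915.6 and 1028.1 with macroH2A1 shRNA and 942.3 and 959.0 with macroH2A2 shRNA. Both knockdown lines overlapped the control. The log2 differences were 0.13 (SE 0.14, interval -0.19 to 0.46) and 0.10 (SE 0.14, interval -0.22 to 0.43). The macroH2A2 shRNA value was -0.03 without control shRNA replicate 1.

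Trpm1, a cation channel of melanocytes whose level falls in aggressive melanoma, was represented by 4 probe sets that did not read alike. The brightest, 1437445_at, read 1012.7 and 1688.6 in the control line, 788.9 and 825.0 with macroH2A1 shRNA and 1309.5 and 1154.5 with macroH2A2 shRNA. The macroH2A1 shRNA arrays were the lowest of all 6, and the macroH2A2 shRNA arrays lay between the widely spaced control arrays. The log2 differences were -0.69 (SE 0.22, interval -1.20 to -0.17) and -0.09 (SE 0.22), and the limma adjusted p of the former was 0.971, or 0.219 with the block. The control replicate 2 array weighed on both values. Without it they were -0.32 and 0.28, and the second was 0.0014 without macroH2A2 shRNA replicate 2. Within replicate 1 and replicate 2 the macroH2A2 shRNA value was 0.37 and -0.54.

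A dimmer Trpm1 probe set, 1418935_at, read 164.4 and 146.8 in the control line, 146.1 and 120.9 with macroH2A1 shRNA and 119.3 and 123.0 with macroH2A2 shRNA. Both knockdown lines lay below the control, at -0.20 (SE 0.18) and -0.32 (SE 0.18). The probe set 1437531_at read 59.4 and 148.4, then 81.1 and 108.7, then 85.9 and 111.9, and gave -0.02 (SE 0.36) and 0.04 (SE 0.36), with a control spread wider than either knockdown line. The dimmest, 1440241_at, read between 12.2 and 16.6 on all arrays and gave 0.09 (SE 0.24) and 0.08 (SE 0.24). RefSeq lists 2 windows for Trpm1, printed above, and which transcript each probe set detects was not examined.

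Across all 19 probe sets, 12 had macroH2A1 shRNA arrays that did not overlap the control, 8 higher and 4 lower. This compares with 27.9% of all tested probe sets, 13% higher and 14.9% lower. Of these 12, 7 were the probe sets above a signal of 5000, and the others were 2 of Tyr, 2 of Trpm1 and the 1 of Oca2. Among all tested probe sets above 5000 the share was 86.2%, with 85.8% higher. With macroH2A2 shRNA this held for 9, 3 higher and 6 lower, against 29.2%, of which 13% higher and 16.2% lower. The 6 lower ones were all 3 of Tyr, both of Slc45a2 and 1 of Trpm1.

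Some member probe sets passed the threshold in blocked fits that left out 1 array, which have 1 residual degree of freedom. For macroH2A1 shRNA 4 passed without either macroH2A2 shRNA array, where the compared arrays are the same and only the estimated spread differs. They were Tyr 1417717_a_at (limma adjusted p 0.0349 and 0.0355), Tyr 1456095_at (0.00827 and 0.00774), Trpm1 1437445_at (0.0102 and 0.00980) and Oca2 (0.0461 and 0.0447), against 1.91% and 1.9% of all tested probe sets. In 2 further fits an arm was a single array, assumed to vary like the other lines, and the difference itself moved. Trpm1 1437445_at passed without control shRNA replicate 1 at -1.08 (limma adjusted p 0.0378), against 0.126%, and Tyr 1456095_at without macroH2A1 shRNA replicate 1 at -1.15 (limma adjusted p 0.0433), against 0.248%. For macroH2A2 shRNA, Tyr 1456095_at passed without macroH2A2 shRNA replicate 2, again a single array in 1 arm, at -0.94 (limma adjusted p 0.00782), against 2.98%.

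The knockdown lines were then compared with each other. With limma 0 of 19 probe sets passed, with or without the block, against 0% and 0.0037% of all tested probe sets, and 2 had an unadjusted p under 0.05, against 2.73% (3 with the block, against 6.33%). The 2 without the block were Oca2, lower with macroH2A2 shRNA than with macroH2A1 shRNA by a log2 difference of -0.47 (SE 0.17, interval -0.87 to -0.08), and Trpm1 1437445_at, higher by 0.60 (SE 0.22, interval 0.09 to 1.11). The arrays of the 2 lines did not overlap for either. Tyr differed by 0.21 (SE 0.13, interval -0.09 to 0.51) and Slc45a2 by -0.30 (SE 0.15, interval -0.65 to 0.04). In all, the lines did not overlap for 5 of 19 probe sets, against 28% of all tested ones. Trpm1 1437445_at passed with the block when macroH2A2 shRNA replicate 2 was left out, which leaves that arm 1 array, at 0.89 (limma adjusted p 0.0242), against 0.755%.

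The replicates differed for the pigment genes within a line as well. In the macroH2A1 shRNA line 9 of the 10 genes read higher on the replicate 2 array, with a median log2 difference of 0.27 from replicate 1, against -0.05 over all tested probe sets. In the macroH2A2 shRNA line 8 of 10 did (median 0.14, against -0.03), and in the control line 4 of 10 (median -0.0071, against -0.11). For the 253 probe sets above 5000 the medians were 0.11, 0.06 and -0.02 in the same order. The log2 differences of Tyrp1, Dct, Pmel, Mlana and Oca2 from control with macroH2A1 shRNA were larger within replicate 2 (0.38, 0.44, 0.41, 0.39 and 0.81) than within replicate 1 (0.08, 0.10, 0.11, 0.12 and 0.26).

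**Figure D5:**
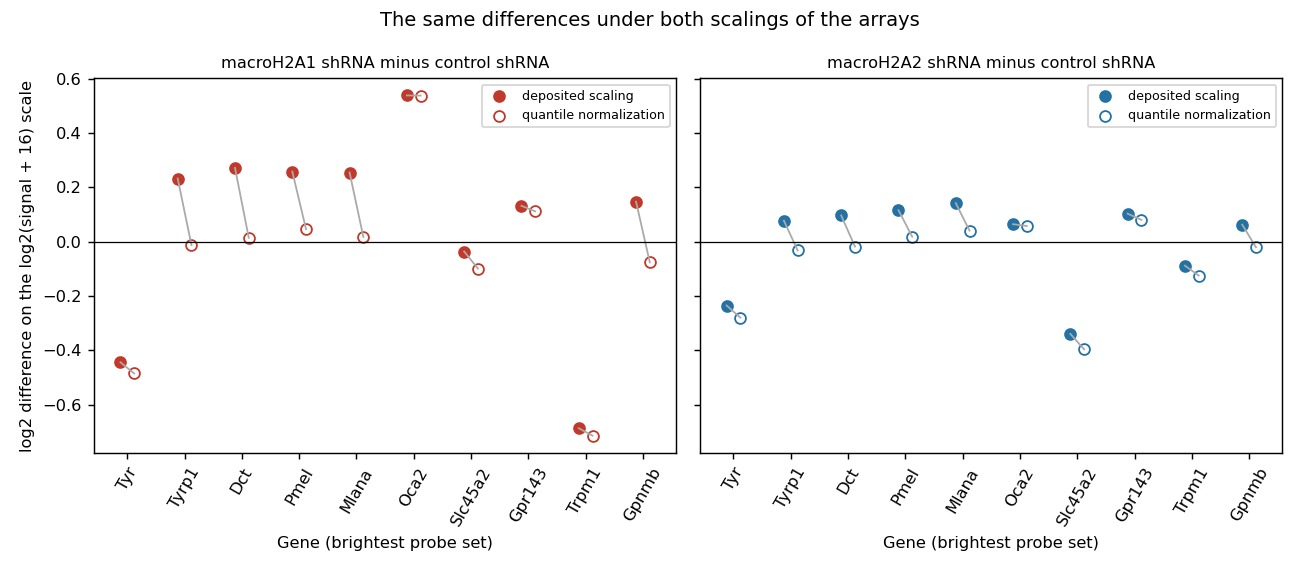
Log2 difference from control (vertical axis) of the 10 genes (horizontal axis, brightest probe set) with the deposited scaling (filled) and after quantile normalization (open), macroH2A1 shRNA on the left and macroH2A2 shRNA on the right. Tyrp1, Dct, Pmel, Mlana and Gpnmb move to near 0, while Oca2 stays at 0.54 and Tyr goes from -0.44 to -0.49 with macroH2A1 shRNA.

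The rest of the pigment machinery gave 0 genes past the threshold in either comparison, with or without the block. Over all tested probe sets the shares were 0% without the block and 0.192% and 0.144% with it, so these counts do not set the genes apart. Of 9 other transport and Pmel-processing genes 6 were higher and 3 lower with macroH2A1 shRNA (median 0.05) and 4 higher and 5 lower with macroH2A2 shRNA (median -0.03). Slc7a11, the cystine importer that also supplies pheomelanin synthesis, had the smallest p in both, with signals of 254.5 and 215.9 in the control line, 87.6 and 21.4 with macroH2A1 shRNA and 35.4 and 99.2 with macroH2A2 shRNA. Its log2 differences were -2.01 (SE 0.51) and -1.70 (SE 0.51). The limma adjusted p was 0.827 and 0.985, or 0.116 and 0.190 with the block. Apoe and Ostm1 followed with macroH2A1 shRNA (0.23 and 0.19), and Tpcn2 and Bace2 with macroH2A2 shRNA (-0.28 and 0.13). Slc24a5 and Cd63 had no probe set with a single symbol.

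Among 22 genes of the complexes that build melanosomes, 13 were higher and 9 lower in each comparison (medians 0.02 and 0.07). Rab32, a small GTPase that delivers cargo to melanosomes, was at -0.61 (SE 0.22) with macroH2A1 shRNA, followed by Ap3b1 (0.27) and Vps33a (0.32). With macroH2A2 shRNA Vps33a (0.38), Hps3 (0.24) and Rab38 (0.23) had the smallest p. Of 6 melanosome movement genes 5 were higher and 1 lower in each comparison (medians 0.11 and 0.13). Myo5a, Rab27a and Rab17 were at 0.21, 0.17 and -0.22 with macroH2A1 shRNA, and Rab17, Mlph and Mreg at -0.67, 0.44 and 0.23 with macroH2A2 shRNA.

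Of 14 tested lineage regulators and receptors 9 were higher and 5 lower in each comparison (medians 0.14 and 0.03). Sox9 (-0.69, SE 0.25), Tfap2a (0.38, SE 0.14) and Mitf (0.27, SE 0.14) had the smallest p with macroH2A1 shRNA, and Zeb2 (-0.45, SE 0.15), Tfap2a (0.37, SE 0.14) and Tfe3 (-0.20, SE 0.17) with macroH2A2 shRNA. Mitf, the main activator of the pigment genes, was at 0.02 (SE 0.14) with macroH2A2 shRNA. Over all 4 lists 0 of 51 tested genes passed the limma threshold in either comparison, against 0% of all tested probe sets. With the block 0 of 51 passed as well, against 0.192% and 0.144%.

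The 3 members with the widest range of group means were Trpm1 (0.69), Oca2 (0.54) and Tyr (0.44). Likeness of other probe sets was measured as the root mean square difference between log2 profiles over the 6 arrays, each centred on its mean. Nearest to Tyr were Gna13 (0.03), Acer3 (0.05) and Osbpl10 (0.05). Gna13, on probe set 1430295_at, read 268.6 and 280.7 in the control line, 186.7 and 190.9 with macroH2A1 shRNA and 199.2 and 258.4 with macroH2A2 shRNA. Oca2 was nearest to Dcaf5 (0.07), Stx8 (0.07) and Slc30a7 (0.08), and Trpm1 to Cdr2 (0.10), Mycbp (0.11) and Snai2 (0.11). These are descriptions over 6 arrays that share their lines and scaling.

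As bulk RNA was measured, fewer cells of a type and less RNA per cell cannot be told apart in any of these values. The 2 arrays of a line are called independent biological replicates by the submitters, and the p-values measure the spread between such arrays. With the block they measure what is left of it after the shared replicate difference is taken out. No p-value measures the spread between separately made lines. Effects of lowering the target and of the line itself therefore cannot be told apart.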

How the data were processed

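Signal was measured on 6 one-colour Affymetrix arrays of biotin-labelled RNA, 2 for each of 3 lines, and groups and replicate numbers came from the labels. Each of 45101 probe sets has 1 deposited intensity, a linear signal that the authors computed with MAS5 per the submitters' processing notes. The sources used here give neither its version nor a genome build. The 2% trimmed mean was 150 on every array, so a change in total signal between lines cannot be seen. The arrays give no detection call here, and their number limits the precision. Probe sets were named from the platform annotation where it gave 1 symbol (34945 probe sets). It gave several for 932 and none for 9160, and 64 control probe sets were left out.

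Signals were analysed as log2(signal + 16), which shrinks fold changes at low signal. Probe sets with a mean signal at or above the 40th percentile, 10.4, were tested (27025). All arrays entered 1 limma fit (limma 3.58.1, R 4.3.3, eBayes with its trend option, 3 residual and 4.90 prior degrees of freedom). P-values were two-sided and Benjamini-Hochberg adjusted over all tested probe sets, with a threshold of 0.05, and intervals are at 95%. The code was tested on simulated data.

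The labels repeat the replicate numbers in each line. Differences between a line's 2 arrays, over tested probe sets, correlated at 0.576, 0.372 and 0.415 for the 3 pairs of lines, and on this ground from the data the numbers were taken to pair the arrays. Blocking on that number (2 residual and 9.09 prior degrees of freedom) gave the value printed beside a result as blocked.

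Every probe set of the 10 genes was reported, with the one of highest mean signal representing the gene. From 4 other pigment lists, up to 3 genes with the smallest p per comparison with control were named. For the 3 members with the widest range of group means, the 3 nearest probe sets of other genes by root mean square difference of centred log2 profiles were named. The members and lists were chosen with earlier results of these data known. Alternatives changed the pseudocount, filter, normalization, variance trend, arrays in the fit, block and probe set, or left out each array.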

Additional observations from a re-analysis of the deposited data

How the results depend on the processing

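The count of pigment probe sets past the threshold was 0 under every setting that kept all 6 arrays, with or without the replicate block. Without 1 array it was 0 in all unblocked fits. In blocked fits without 1 array it ranged from 0 to 4 for macroH2A1 shRNA, from 0 to 1 for macroH2A2 shRNA and from 0 to 1 between the knockdown lines. Of 447 gene values recomputed, 423 kept their direction and side of the threshold and 24, all uncalled, changed sign. Blocked fits that also changed another setting or left out 1 array were not among the 447. Quantile normalization gave -0.013 for Tyrp1 and -0.076 for Gpnmb with macroH2A1 shRNA, -0.032 for Tyrp1, -0.018 for Dct and -0.021 for Gpnmb with macroH2A2 shRNA, and 0.023 for Mlana and 0.055 for Gpnmb between the lines. It moved the median of the 10 genes with macroH2A1 shRNA from 0.19 to 0.00085. Median centring gave 0.017 for Slc45a2 with macroH2A1 shRNA. Other probe sets gave 0.093 for Trpm1 with macroH2A1 shRNA, 0.036 and 0.082 for Trpm1 and -0.13 for Gpnmb with macroH2A2 shRNA, and -0.12 and -0.011 for Trpm1 between the lines. The cause was not tested.

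In unblocked fits without 1 array each, the macroH2A1 shRNA value of Slc45a2 ranged from -0.22 to 0.15, of Oca2 from 0.33 to 0.75, of Trpm1 from -1.05 to -0.32 and of Dct from 0.12 to 0.42. With macroH2A2 shRNA, Tyr ranged from -0.38 to -0.09, Gpr143 from -0.026 to 0.23, Trpm1 from -0.45 to 0.28 (positive without control shRNA replicate 2 or macroH2A2 shRNA replicate 2), Dct from -0.026 to 0.22 and Gpnmb from -0.017 to 0.14. Between the lines, Pmel ranged from -0.29 to 0.0045, Mlana from -0.25 to 0.024 and Gpr143 from -0.11 to 0.053. With all 6 arrays the replicate block leaves the differences as they are, and it changed no call among the pigment probe sets.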
